A study of Nasonia vitripennis with 51 samples.

Results

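DNA methylation was compared in the bodies (thorax and abdomen) of female Nasonia vitripennis, a parasitoid wasp, after feeding on 5-aza-2'-deoxycytidine (5-aza-dC). The 2 groups were 9 body samples from females fed 20% sucrose with 10 µM 5-aza-dC for 24 h, and 9 body samples from females fed 20% sucrose alone for 24 h. In each group, 3 samples were harvested 0 h, 3 at 24 h and 3 at 48 h after feeding ended. Every sample was a pool of 10 females of AsymC, a wild-type laboratory strain that had been cured of the bacterium Wolbachia and was reared on blowfly hosts. All CpGs with reads in these 18 of the 51 samples of the series were used. They numbered 3362932, or 81.0% of the 4150376 CpGs listed. Heads of the same 2 regimes, and bodies fed 10 µM 5-aza-dC for 48 h, are set beside them further on.

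5-aza-dC is a cytidine analogue that enters replicating DNA in place of cytosine and traps DNA methyltransferases. In cultured mammalian cells that divide in its presence, methylation is then lost passively because it is not copied onto new strands. Nasonia carries maintenance and de novo methyltransferases, and its CpG methylation lies mainly in exons of a minority of genes, where neighbouring CpGs tend to be methylated together, while most CpGs carry little or none. In the body of an adult female wasp, the ovary is a main site of dividing cells. Each level measured here is an average over all cells of a pool, so a change within cells and a change in the mix of cells cannot be told apart.

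The level of a CpG is the percentage of its reads that stayed methylated after bisulphite conversion. Mean coverage ranged from 12.7 to 57.7 reads per CpG in the 5-aza-dC bodies and from 19.9 to 31.5 in the sucrose bodies, and no kept value rested on fewer than 3 reads. Over CpGs with a mean level under 2%, taken here as background, levels lay between 0.314% and 3.24% in 5-aza-dC bodies and between 0.445% and 1.17% in sucrose bodies. Replicate 2 of the 5-aza-dC bodies harvested at 0 h had the 3.24%, and the next highest sample had 1.72%. Within a feeding regime all samples have reads at the same CpGs, and the regimes differ in which CpGs those are, so a difference in handling between regimes cannot be told apart from the feeding. The titles of 6 of the 18 samples, replicate 1 of each group and harvest time, give another harvest time or none, and the time in the sample characteristics was used. Each comparison of regimes allowed for harvest time. The build of the positions is not given in the sources used here, so sites are named by sequence and position as listed, without a gene.

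Over the 18 samples, no class of CpG had a lower mean level in 5-aza-dC bodies than in sucrose bodies. The wasp methylome was sparse, with 13882 CpGs (0.413%) at a mean level of 50% or above. In the most methylated class, 8882 CpGs at 80% or above, sample means had a lowest value of 88.4%, a median of 90.1% and a highest of 91.1% in 5-aza-dC bodies, against 88.5%, 89.3% and 89.6% in sucrose bodies. Of the 9 samples from 5-aza-dC bodies, 6 lay above every sucrose sample, while 2 of those harvested at 0 h lay near the bottom of the sucrose range. The class averaged 89.9% ± 0.936 in 5-aza-dC bodies and 89.2% ± 0.400 in sucrose bodies (SD, n = 9 each), a difference of 0.696 percentage points (exact two-sided permutation p = 0.0193 within harvest times, 0.116 after Benjamini-Hochberg adjustment over 6 classes). Shifts of 0.140 to 1.27 points were not rejected by that unadjusted test. Per harvest time, the class was 0.340 points higher at 0 h, 1.25 points higher at 24 h and 0.503 points higher at 48 h in 5-aza-dC bodies.

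The 5000 CpGs at 50 to 80% averaged 68.1% ± 1.65 in 5-aza-dC bodies and 67.3% ± 0.621 in sucrose bodies (SD, n = 9 each). The difference of 0.885 points did not pass (exact permutation p = 0.165, adjusted p = 0.439), and shifts from -0.312 to 2.15 points were not rejected. At 20 to 50%, 6034 CpGs averaged 29.4% ± 2.76 in 5-aza-dC bodies and 28.7% ± 0.631 in sucrose bodies. At 10 to 20%, 41361 CpGs averaged 13.4% ± 2.35 in 5-aza-dC bodies and 12.8% ± 0.539 in sucrose bodies. Neither class passed the exact permutation test (adjusted p = 0.481 for both), nor did the classes at 2 to 10% and under 2%, which were 0.882 and 0.392 points higher in 5-aza-dC bodies. In all 6 classes the SD was larger in 5-aza-dC bodies than in sucrose bodies, as the plot of sample means by class shows.

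**Figure D1:**
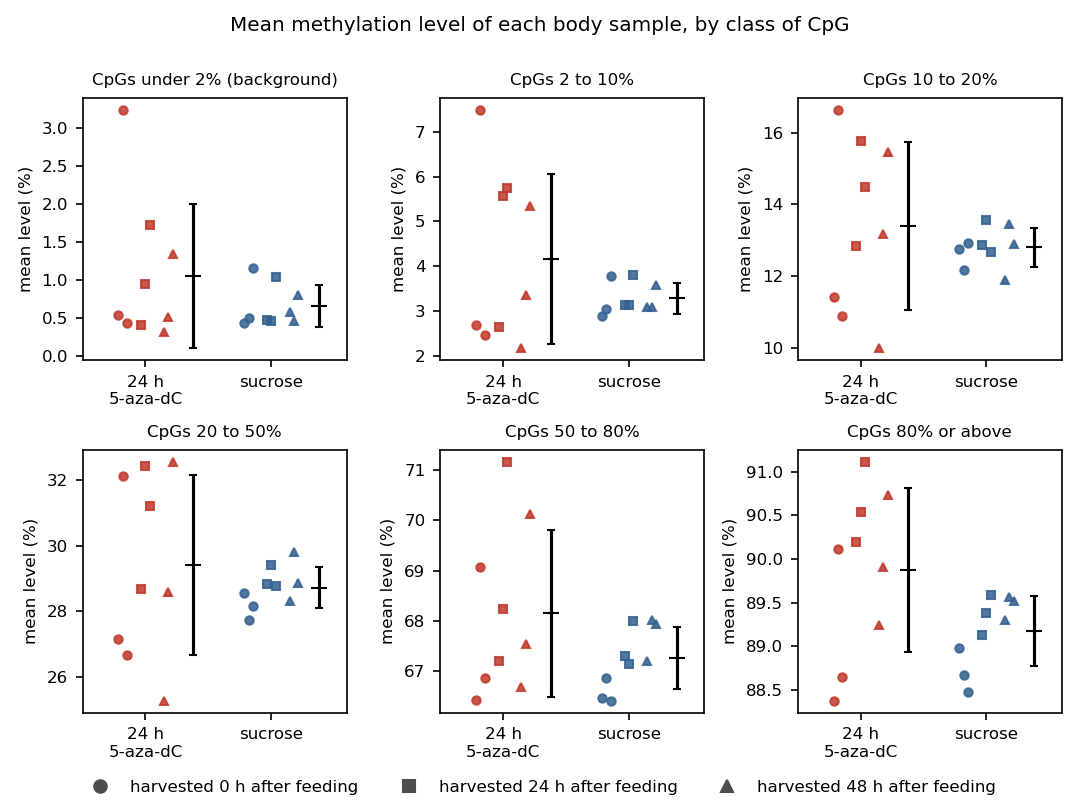
Mean methylation level (percent) of each body sample in 6 classes of CpG, 24 h 5-aza-dC left and sucrose right, with symbols for harvest time and bars for the mean ± SD of 9 samples. The 5-aza-dC samples spread more widely than the sucrose samples in every class, and 6 of 9 lie above all sucrose samples in the class at 80% or above.

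The spread among 5-aza-dC bodies moved with coverage and background. In the 10 to 20% class their 3 lowest means, 9.98%, 10.9% and 11.4%, belonged to the 3 most deeply covered samples, with 45.0, 57.7 and 33.0 reads per CpG. Without the 5 samples whose background exceeded 1%, 3 from 5-aza-dC bodies and 2 from sucrose bodies, the difference at 80% or above was 0.312 points (exact permutation p = 0.261) and those at 50 to 80%, 20 to 50% and 10 to 20% were -0.0819, -0.737 and -0.451 points. The part of coverage and background in the class means was not tested further. By chromosome, CpGs at 50% or above were higher by 0.371 to 0.850 points in 5-aza-dC bodies on chromosomes 1 to 5 and on the unplaced sequences, and none of the 6 differences passed (lowest adjusted exact permutation p = 0.110).

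At single CpGs the feeding regimes differed at few positions, in both directions. Of 61277 CpGs with a mean level of at least 10%, 152 passed (0.248%; quasi-binomial model with a harvest time block, Benjamini-Hochberg adjusted p under 0.05). Of these, 81 were higher in 5-aza-dC bodies (0.132%) and 71 were lower (0.116%). The called differences had a median size of 22.6 points (13.2 to 42.9), against 3.66 points over all tested CpGs. At an unadjusted p under 0.05 stood 4992 CpGs (8.15%). On simulated reads this model made more false calls at CpGs than its threshold allows, so the share of false calls among the 152 may exceed it too; limma did not, and the tests in heads and of harvest time given further on were not simulated.

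By level, 62 of the 41361 CpGs at 10 to 20% were called (0.15%), 45 of them higher and 17 lower in 5-aza-dC bodies. The calls numbered 48 at 20 to 50% (0.795%; 25 higher and 23 lower), 36 at 50 to 80% (0.72%; 11 higher and 25 lower) and 6 of 8882 at 80% or above (0.0676%; all lower). The CpGs with an unadjusted p under 0.05 did not share this shift with level, with 1539 higher and 1602 lower at 10 to 20%, 412 and 396 at 20 to 50%, 313 and 249 at 50 to 80%, and 301 and 180 at 80% or above. Whether the direction depends on the level was not tested. The number of calls rested on the model: limma on arcsine-transformed levels called 8 CpGs, all among the 152, and the quasi-binomial model without the 5 samples of high background called 45, of which 36 were among the 152. Leaving out a single sample gave 79 to 273 calls, with 79 without replicate 3 and 99 without replicate 2 of the 5-aza-dC bodies harvested at 24 h, and 273 without replicate 3 of those harvested at 0 h.

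**Figure D2:**
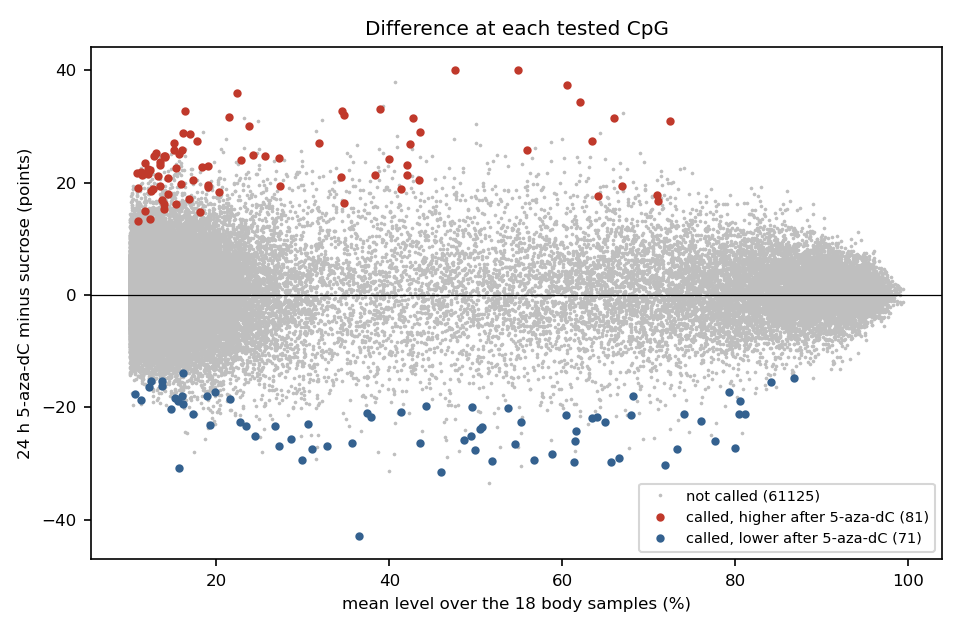
Difference in level between 24 h 5-aza-dC and sucrose bodies (percentage points) at each of 61277 tested CpGs, against its mean level over the 18 body samples (percent). Called CpGs that were higher (81) are red and those that were lower (71) are blue; grey points were not called, and calls above a level of 80% are all lower.

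The CpG with the lowest p was GL341018 position 1228871. Its level had a lowest value of 23.5%, a median of 37.0% and a highest of 57.1% in 5-aza-dC bodies, against 0%, 4.00% and 13.3% in sucrose bodies. Every 5-aza-dC sample lay above every sucrose sample. The means were 40.4% ± 12.1 in 5-aza-dC bodies and 4.34% ± 4.91 in sucrose bodies (SD, n = 9 each), a difference of 36.1 points (quasi-binomial adjusted p = 9.87e-05), and the difference was 34.6, 43.2 and 30.3 points at 0, 24 and 48 h. At this site the median sample held 20 reads in 5-aza-dC bodies and 18 reads in sucrose bodies.

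In the opposite direction, GL340974 position 146110 had a lowest level of 0%, a median of 11.1% and a highest of 29.2% in 5-aza-dC bodies, against 40.0%, 52.9% and 90.0% in sucrose bodies. The groups did not overlap here either. The level was 42.9 points lower in 5-aza-dC bodies (quasi-binomial adjusted p = 0.000262), the largest of the 152 called differences, at median depths of 12 reads in 5-aza-dC bodies and 19 reads in sucrose bodies.

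GL341019 position 2565439 was unmethylated in 8 of the 9 samples from 5-aza-dC bodies and reached 2.50% in the other one. In sucrose bodies its lowest level was 7.69%, its median 25.0% and its highest 66.7%. The groups did not overlap, and the difference was -30.8 points (quasi-binomial adjusted p = 0.000747). These samples held few reads at the site, with medians of 13 in 5-aza-dC bodies and 9 in sucrose bodies. The site met the level minimum for testing only through the sucrose bodies, so it could not have been called higher. Of the 152 called CpGs, 4 had groups that did not overlap, against 9 of 61277 tested CpGs with every 5-aza-dC sample above every sucrose sample (0.0147%) and 2 with every one below (0.00326%).

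On chromosome 4, position 7966612 had a lowest level of 37.5%, a median of 60.6% and a highest of 78.6% in 5-aza-dC bodies, against 4.00%, 25.0% and 38.5% in sucrose bodies. A single 5-aza-dC sample and a single sucrose sample overlapped, and the difference of 33.1 points was made up of 31.6 points at 0 h, 32.2 at 24 h and 35.6 at 48 h. ChrUn_1737 position 4924 averaged 79.3% ± 10.4 in 5-aza-dC bodies and 41.9% ± 23.3 in sucrose bodies (SD, n = 9 each). Its sucrose bodies ranged widely, from 5.56% to 77.4%. Under other settings, the chromosome 4 site lost its call in 2 of 11 (adjusted p up to 0.122). The ChrUn_1737 site lost its call in 2 of 10 (adjusted p up to 0.118).

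The other higher CpGs with the largest differences were GL341022 position 283565 (67.6% in 5-aza-dC bodies and 27.6% in sucrose bodies), GL341020 position 205614 (74.9% and 34.8%, in the same order) and chromosome 3 position 24734125 (79.2% and 44.9%, in the same order). The other lower CpGs were chromosome 4 position 10626807 (30.3% in 5-aza-dC bodies and 61.7% in sucrose bodies), chromosome 5 position 5839893 (56.7% and 87.0%, in the same order), chromosome 2 position 12140943 (50.7% and 80.5%) and GL341019 position 2550985 (46.5% and 76.2%). These 7 overlapped between the groups, and the largest adjusted p among them was 0.0336, at the chromosome 3 site. With each of the 18 samples left out in turn, that chromosome 3 site lost its call in 9 cases (adjusted p up to 0.102) and GL341020 position 205614 lost it in 7 (adjusted p up to 0.0851). Under 10 other settings they lost it in 6 (adjusted p up to 0.254) and in 4 (adjusted p up to 0.351), and GL341019 position 2550985 lost it in 3 of 11 (adjusted p up to 0.314). Chromosome 2 position 12140943 (up to 0.176), chromosome 4 position 10626807 (up to 0.214) and GL341022 position 283565 (up to 0.0921) each lost it in 3 of 10. Chromosome 5 position 5839893 lost it in 4 of 10 (adjusted p up to 0.152).

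Called CpGs had neighbours that moved with them. A tested CpG within 100 bases was present beside 125 of the 152 called CpGs (82.2%), against 33.6% of all tested CpGs. The nearest such neighbour differed in the same direction at 120 of the 125 (96.0%), against 59.1% over all tested CpGs with one, and 42 of these neighbours were themselves called (33.6%, against 0.68% over all tested CpGs with one). Neighbouring CpGs share reads, so these are not independent measurements. Grouping called CpGs less than 1000 bases apart gave 112 loci, of which 84 held a single call, 19 held 2, 6 held 3 and 3 held 4. No locus held calls of both directions.

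Of the 9 loci with at least 3 called CpGs, 4 were higher and 5 were lower in 5-aza-dC bodies. Summed over the called CpGs, the locus on chromosome 5 at positions 8120311 to 8120331 had a lowest level of 22.1%, a median of 33.3% and a highest of 39.1% in 5-aza-dC bodies, against 35.0%, 57.8% and 73.6% in sucrose bodies. The samples from 5-aza-dC bodies formed a narrow band, and a single sucrose sample fell inside it. In heads the same CpGs averaged 35.6% ± 10.0 after 5-aza-dC (n = 7) and 59.4% ± 13.7 after sucrose (n = 9).

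The locus on chromosome 1 at positions 25487177 to 25487200 had 4 called CpGs within 24 bases and averaged 55.2% ± 10.1 in 5-aza-dC bodies and 75.9% ± 7.39 in sucrose bodies (SD, n = 9 each). It was lower by 21.9, 21.5 and 19.0 points at 0, 24 and 48 h. A further locus on chromosome 1, at positions 20613626 to 20613869, went the other way, with 32.3% ± 15.4 in 5-aza-dC bodies and 10.4% ± 4.67 in sucrose bodies. One sample, replicate 2 harvested at 24 h, stood at 65.4% there, and the other 5-aza-dC samples lay between 12.5% and 39.0%.

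At a pair of loci the higher mean was carried by some pools only. At ChrUn_0965 positions 3567 to 3647, the 5-aza-dC bodies harvested at 24 h had 0%, 86.4% and 76.5% and those harvested at 48 h had 0.645%, 40.0% and 21.4%, while those harvested at 0 h had 1.72% to 5.31%. The sucrose bodies lay between 0% and 3.39%. Because testing required a minimum mean level, CpGs this low in sucrose bodies could be tested only where 5-aza-dC bodies were higher. Heads had 2.01% ± 1.69 after 5-aza-dC (n = 7) and 0.930% ± 1.32 after sucrose (n = 9). At GL340893 positions 27648 to 28133, the same 4 pools of 5-aza-dC bodies, replicates 2 and 3 at 24 h and at 48 h, ranged from 21.4% to 68.9%, the other 5 had 0% to 21.9%, and the sucrose bodies had 0% to 14.7%. The bottom row of the plot of loci shows both.

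**Figure D3:**
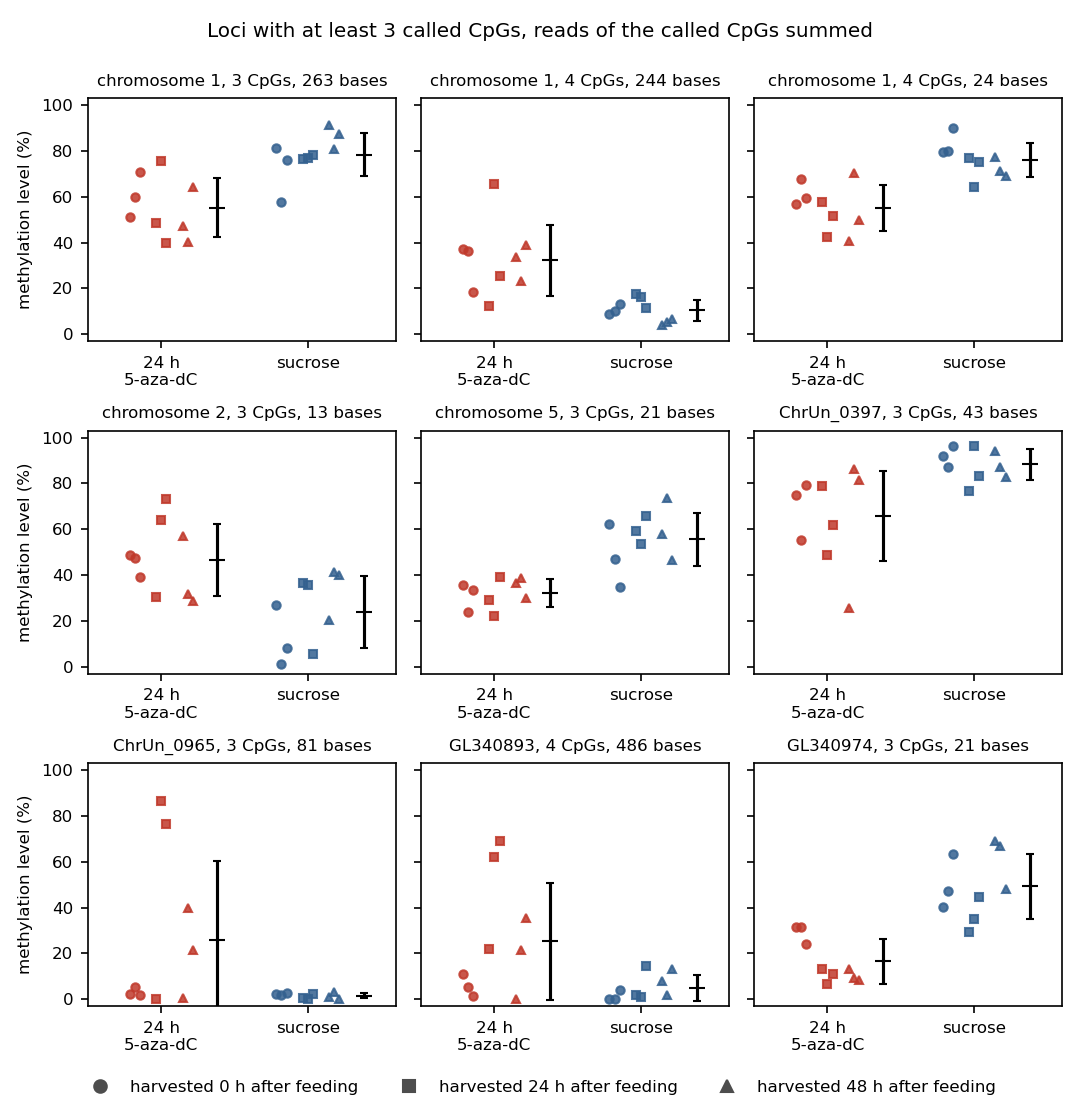
Methylation level (percent) of each body sample at the 9 loci with at least 3 called CpGs, reads of the called CpGs summed, 24 h 5-aza-dC left and sucrose right, with bars for mean ± SD of 9 samples. At 7 loci the groups overlap in part, as on chromosome 2 (28.8% to 73.2% in 5-aza-dC bodies and 1.20% to 41.4% in sucrose bodies). At ChrUn_0965 and GL340893 the 5-aza-dC samples range from 0% to 86.4% and from 0% to 68.9%.

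Clusters of methylated CpGs gave deeper measurements. Runs of at least 3 CpGs at a mean level of 50% or above, with at most 100 bases between neighbours, numbered 1777 and held 62.2% of the CpGs at that level. A cluster had a median of 4 CpGs over 94 bases and a median level of 83.8%. The same model called 10 clusters (0.563%), 4 higher in 5-aza-dC bodies (0.225%) and 6 lower (0.338%), and 176 (9.90%) had an unadjusted p under 0.05. Over all clusters, called or not, 1059 had a higher mean in 5-aza-dC bodies and 718 a lower one, with a median difference of 0.675 points. By limma 5 clusters were called, all among the 10.

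The cluster with the lowest p was the chromosome 1 locus from position 25487177, whose 4 methylated CpGs are the called CpGs given above (quasi-binomial adjusted p = 4.82e-05). Its range was 40.6% to 70.3% in 5-aza-dC bodies and 64.0% to 89.8% in sucrose bodies. The cluster at ChrUn_1737 positions 4924 to 4995 (5 CpGs) had a lowest level of 78.7%, a median of 88.2% and a highest of 96.3% in 5-aza-dC bodies, against 54.7%, 73.5% and 85.6% in sucrose bodies. It was higher by 17.3 points (quasi-binomial adjusted p = 0.000149), and 8 of the 9 samples from 5-aza-dC bodies lay above every sucrose sample.

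At chromosome 5 positions 8006366 to 8006593, a cluster of 8 CpGs differed by less but without overlap. Its levels had a lowest value of 82.1%, a median of 86.8% and a highest of 89.2% in 5-aza-dC bodies, against 89.3%, 91.4% and 92.9% in sucrose bodies. It was lower by 4.68 points (quasi-binomial adjusted p = 0.00526), with median depths of 434 reads in 5-aza-dC bodies and 362 reads in sucrose bodies. It was the only cluster of 1777 whose groups did not overlap (0.0563%). This call was lost under 7 of 10 other settings, among them limma (adjusted p = 0.272, in a range of 0.00375 to 0.600 over the settings), while its direction held under all of them.

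The other lower clusters were at ChrUn_0397 positions 15066 to 15108 (63.5% ± 18.8 in 5-aza-dC bodies and 87.3% ± 6.17 in sucrose bodies), GL340974 positions 210010 to 210085 (64.7% ± 5.79 and 82.6% ± 7.26, in the same order), chromosome 5 positions 5839818 to 5839896 (65.4% ± 5.67 and 83.3% ± 8.91) and GL341005 positions 69973 to 70019 (67.6% ± 14.0 and 81.1% ± 3.23). Each mean is over 9 samples with its SD. The other higher clusters were GL340988 positions 60382 to 60475 (73.7% ± 8.67 in 5-aza-dC bodies and 50.8% ± 14.9 in sucrose bodies), and GL341019 positions 2627184 to 2627667, where 19 CpGs averaged 88.5% ± 2.68 in 5-aza-dC bodies and 84.2% ± 2.08 in sucrose bodies. Of 10 other settings, 6 ended the call of this GL341019 cluster (adjusted p up to 0.989) and 5 that of GL341005 (adjusted p up to 0.358). The tenth called cluster, at GL340882 positions 2072590 to 2072709, was 13.2 points higher over the 3 harvest times, yet 2.17 points lower in the 5-aza-dC bodies harvested at 24 h.

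Heads gave a set of samples that the body calls had not used. They comprised 7 head samples after 24 h of 5-aza-dC and 9 after sucrose, and the labels do not say whether heads and bodies came from the same females. Of the 152 CpGs called in bodies, 136 differed in the same direction in heads, 70 of the 81 higher and 66 of the 71 lower ones, against 54.5% of all tested CpGs. The median head difference was 16.9 points for the CpGs higher in bodies and -17.1 points for the lower ones. At the locus of 3 called CpGs that starts at GL340974 position 146110, heads differed by -5.96 points, against -32.8 points in bodies. In heads tested alone, 444 of the 61277 CpGs were called (0.725%), and 57 of these were among the 152 of the bodies, which is 37.5% of the body calls and 12.8% of the head calls. No CpG passed a test of whether the regime difference itself differed between heads and bodies (0 of 61277 by the quasi-binomial model and 0 by limma, with 4582, or 7.48%, and 3506 at an unadjusted p under 0.05).

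The called clusters behaved alike in this respect, with 9 of 10 in the same direction in heads, against 59.4% of all clusters. Heads alone gave 17 called clusters (0.957%), 4 of them among the 10, and 0 of 1777 clusters passed the test of a difference between tissues (100, or 5.63%, at an unadjusted p under 0.05; 0 by limma). At ChrUn_1737, heads averaged 92.7% ± 4.82 after 5-aza-dC (n = 7) and 77.2% ± 9.61 after sucrose (n = 9). At the cluster of 8 CpGs on chromosome 5, heads averaged 86.2% ± 4.88 after 5-aza-dC and 93.0% ± 1.92 after sucrose. The exception was the 19-CpG cluster of GL341019, at 92.5% ± 0.920 in heads after 5-aza-dC and 92.7% ± 1.26 in heads after sucrose. Of the 9 in the same direction, some differed little in heads. The cluster at GL340974 positions 210010 to 210085 differed by -3.68 points in heads and -17.8 in bodies. That at GL340882 positions 2072590 to 2072709 differed by 3.20 points in heads and 13.2 in bodies.

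**Figure D4:**
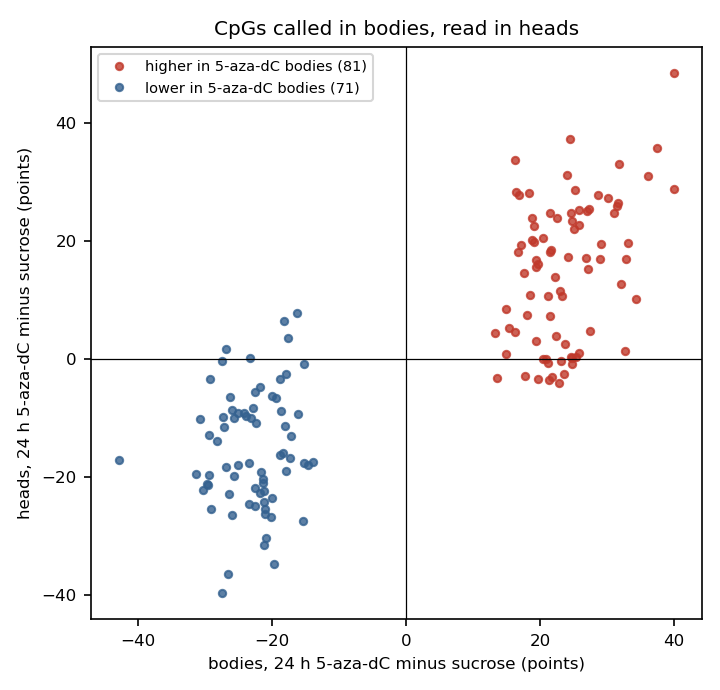
Difference between 24 h 5-aza-dC and sucrose in heads (percentage points) against the same difference in bodies, for the 152 CpGs called in bodies, with higher ones red and lower ones blue. Most points lie in the quadrants of equal sign (136 of 152), and 24 higher and 9 lower CpGs lie within 5 points of 0 in heads.

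Some called CpGs stood near 0 in that head comparison. Of the 81 higher CpGs, 24 differed by less than 5 points in heads, a limit chosen after the values were seen. Their median level in heads was 4.42% after 5-aza-dC and 4.10% after sucrose. In 5-aza-dC bodies the median over these 24 CpGs was 8.35%, 7.70% and 3.36% in the samples harvested at 0 h, 20.8%, 62.9% and 60.8% in those harvested at 24 h, and 0%, 25.0% and 26.8% in those harvested at 48 h. It was at most 3.94% in every sucrose body sample. Testing required a minimum mean level over the body samples of both regimes. CpGs this low in sucrose bodies could therefore enter only through higher levels in 5-aza-dC bodies, and could not be called lower. Their low sucrose levels beside higher 5-aza-dC levels are thus in part a result of that choice. Among the 24 are all 3 called CpGs of the ChrUn_0965 locus and all 4 of the GL340893 locus, so their likeness to those loci is in part their own. Over the 17 others, the medians in 5-aza-dC bodies were 11.4%, 14.3% and 7.27% at 0 h, 25.0%, 50.0% and 54.5% at 24 h, and 5.88%, 25.0% and 25.0% at 48 h, against at most 3.57% in every sucrose body sample. Replicate 3 at 24 h had a background of 1.72%, and replicate 2 at 24 h had 0.956%. In the 2 to 10% class, replicates 2 and 3 had 5.55% and 5.74% at 24 h and 3.34% and 5.35% at 48 h. Replicate 2 at 0 h had 7.49% in that class, and sucrose bodies had at most 3.79%. The part of background in the levels of these CpGs was not tested. Of the 71 lower CpGs, 9 also differed by less than 5 points in heads, with median levels of 29.0% in heads after 5-aza-dC and 30.2% in heads after sucrose, beside 11.8% in 5-aza-dC bodies and 35.1% in sucrose bodies. These CpGs were picked for a difference in bodies and a small one in heads, which lowers their p for a difference between tissues, and none passed that test after adjustment (lowest adjusted p = 0.332 for the higher and 0.429 for the lower ones, quasi-binomial model).

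At the other 57 higher CpGs, the median level lay between 32.9% and 55.0% in each of the 9 samples from 5-aza-dC bodies and between 8.00% and 19.2% in each sucrose body sample. In heads their medians were 40.9% after 5-aza-dC and 16.9% after sucrose. These 57 were picked for a higher level in bodies and a head difference of at least 5 points in either direction. The gaps between regimes in both tissues are thus in part a result of that choice.

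A subset of the called CpGs also had reads in all 9 bodies fed 5-aza-dC for 48 h, which are set beside the same sucrose bodies. The sucrose bodies were fed for 24 h, so the length of feeding differs too. For the 16 higher CpGs with such reads, median levels were 51.5% after 24 h of 5-aza-dC, 32.8% after 48 h of 5-aza-dC and 27.2% after sucrose. For the 23 lower ones, they were 35.7% after 24 h of 5-aza-dC, 50.0% after 48 h and 61.5% after sucrose. GL341019 position 2565439, near 0% after 24 h of 5-aza-dC, had 31.0% ± 19.6 after 48 h of 5-aza-dC and 31.1% ± 20.0 after sucrose (SD, n = 9 each). These medians describe CpGs chosen for their difference between the other 2 regimes, and the difference between 24 h and 48 h feeding was not tested.

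Harvest time had its own part in the comparison. Of the 152 called CpGs, 142 differed in the same direction at 0, 24 and 48 h, against 27.9% of all tested CpGs, a share that the choice of CpGs by their overall difference raises. Tested separately, the regimes differed at 52 CpGs at 0 h (0.0849%; 22 higher in 5-aza-dC bodies, or 0.0359%), at 44 at 24 h (0.0718%; 33 higher, or 0.0539%) and at 151 at 48 h (0.246%; 68 higher, or 0.111%). The regime difference itself changed with harvest time at 93 CpGs (0.152%; quasi-binomial model, adjusted p under 0.05; 7.44% at an unadjusted p under 0.05), with its largest size at 48 h in 66 of them, at 0 h in 20 and at 24 h in 7. None of the 93 was among the 152. The 152 are 0.248% of all tested CpGs, so the absence of overlap says little about 93 CpGs. A difference that changes sign with harvest time also shrinks the difference over all times. Limma called 4 such CpGs. A large difference at 48 h can lie in the sucrose bodies. At chromosome 1 position 6664894, sucrose bodies averaged 81.7%, 79.0% and 27.8% at 0, 24 and 48 h. The 5-aza-dC bodies averaged 77.7%, 84.8% and 93.8% there. The 93 CpGs were not divided by the regime whose level changed.

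The strongest of these was chromosome 3 position 16187704. Levels were 40.0%, 44.0% and 66.1% at 0 h, 31.2%, 0% and 44.4% at 24 h, and 12.2%, 0% and 0% at 48 h in 5-aza-dC bodies. In sucrose bodies they were 0%, 0% and 14.3% at 0 h, 27.3%, 5.88% and 0% at 24 h, and 60.0%, 76.2% and 70.3% at 48 h. The difference was thus 45.3 points at 0 h, 14.2 points at 24 h and -64.8 points at 48 h (interaction adjusted p = 9.38e-08, quasi-binomial model). In 5-aza-dC bodies the highest levels were at 0 h, and in sucrose bodies they were at 48 h. The groups did not overlap at 0 h or at 48 h, and did so at 24 h.

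On chromosome 2, positions 28074181, 28074183 and 28074284 followed a similar course. At position 28074183, 5-aza-dC bodies averaged 74.9% ± 4.50 at 0 h, 47.0% ± 21.5 at 24 h and 39.3% ± 10.4 at 48 h, against 12.6% ± 3.99, 38.1% ± 12.6 and 86.6% ± 10.2 in sucrose bodies (SD, n = 3 each). The interaction adjusted p was 6.10e-06 at 28074181 and at 28074183 and 6.26e-07 at 28074284 (quasi-binomial model). In heads the differences at position 28074183 were 58.4, 16.3 and -48.9 points at 0, 24 and 48 h, beside 62.3, 8.84 and -47.3 points in bodies. Over the 93 CpGs, heads differed in the same direction as bodies at 80 CpGs at 0 h, at 69 at 24 h and at 86 at 48 h, against 52.4%, 54.1% and 52.1% of all tested CpGs.

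**Figure D5:**
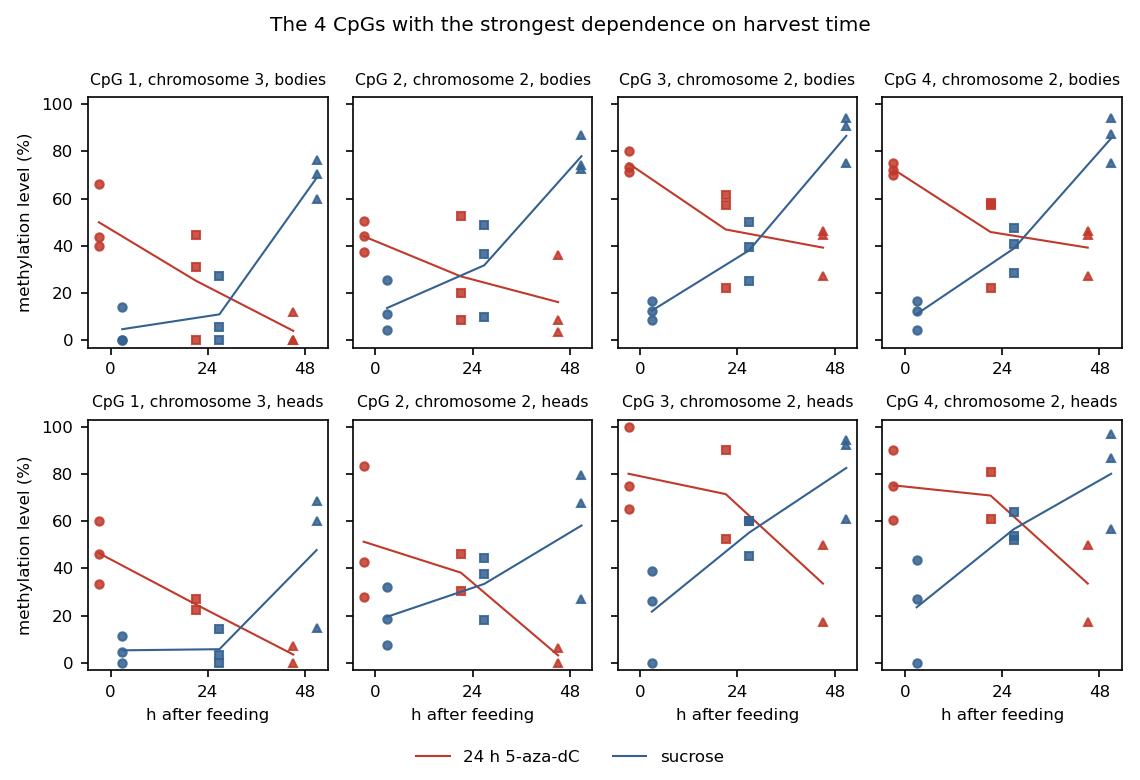
Methylation level (percent) at 0, 24 and 48 h after feeding for the 4 CpGs with the lowest interaction p (from left, chromosome 3 position 16187704 and chromosome 2 positions 28074284, 28074183 and 28074181), bodies above and heads below, 24 h 5-aza-dC red and sucrose blue, with lines through the means of 2 or 3 samples. The 5-aza-dC lines run down and the sucrose lines run up from 0 h to 48 h in both tissues.

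Among clusters, the regime difference changed with harvest time at 9 of 1777 (0.506%; quasi-binomial model; 6.92% at an unadjusted p under 0.05), and at 0 by limma, where 114 had an unadjusted p under 0.05. Harvest times taken one by one gave 7 called clusters at 0 h (0.394%), 16 at 48 h (0.9%) and 0 at 24 h, where 148 had an unadjusted p under 0.05 (quasi-binomial model, the single tool run by harvest time). At GL341021 positions 1325585 to 1325732, 5-aza-dC bodies averaged 69.5% ± 6.96, 71.0% ± 10.2 and 79.1% ± 5.34 at 0, 24 and 48 h, and sucrose bodies 73.6% ± 4.91, 79.2% ± 3.47 and 45.7% ± 6.21 (SD, n = 3 each). The regimes therefore stood apart at 48 h, when the sucrose bodies were low (interaction adjusted p = 0.0129, quasi-binomial model). With regime in the model, harvest time alone was called at 14 CpGs (0.0228%) and at 0 clusters (129 at an unadjusted p under 0.05, quasi-binomial model), and 4 of the 152 CpGs called for regime were among the 14.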

How the data were processed

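Whole-genome bisulphite libraries were made from DNA of pooled females with the EZ DNA Methylation and TruSeq DNA methylation kits and sequenced in paired-end mode, per the labels' protocols. Per the submitters' processing notes, cutadapt 1.12, Bismark 0.16, Bowtie2, SAMtools, methylKit 0.99.3 and R 3.3.1 were used. Their settings and the genome build are not given in the sources used here. For each CpG and sample the authors deposited a pair of counts, reads called methylated and all reads, not normalized; every value used rests on at least 3 reads, where 1 read moves a level by 33.3 points.

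All 18 body samples of the 24 h 5-aza-dC and sucrose regimes entered each main comparison of bodies. Every sample column of the deposited counts was matched to a sample. The 8 head samples of the 48 h 5-aza-dC regime were not used. The 18 body samples were the units of the tests in bodies. They are biological replicates per the labels. Permutation p-values rest on the spread between pools. Those of the quasi-binomial model also rest on read counts and on a dispersion moderated across sites. A low p can thus stand beside a wide spread at a site. At ChrUn_0965, 5-aza-dC bodies ranged from 0% to 86.4%, and the lowest quasi-binomial adjusted p of a CpG was 0.000327. No 2 samples had identical counts at more than 1.24% of the CpGs compared, and none were merged. Total reads at the kept CpGs were 42812853 to 193966083 in 5-aza-dC bodies and 66978859 to 105877682 in sucrose bodies. Intervals cover only the spread between samples.

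Class means were compared by exact permutation of the regime within harvest times (8000 arrangements). CpGs (3 reads in all 18 samples, mean level of at least 10%) and clusters were tested with a quasi-binomial logistic model of the counts with harvest time as a block. Its dispersion was moderated with limma 3.58.1 in R 4.3.3 and kept at 1 or above, with Benjamini-Hochberg adjustment over all features (threshold 0.05). Fits used Python 3.11.15, numpy 2.4.6, scipy 1.17.1 and pandas 2.3.3. The procedures were tested on simulated data, where the model at CpGs made more false calls than its threshold allows and limma did not.

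The CpGs and clusters named are, among calls with the same sign at all 3 harvest times, the 6 with the largest difference in each direction, or all where fewer; loci with at least 3 calls and the CpGs and clusters that depend on harvest time were chosen after their values were seen. The samples, lists and tests were chosen with earlier results of these data known. Gene lists were not used here, since the chromosome 4 positions end at 14807362 in the deposited table while the annotation at hand, of another build, reaches 33097290. Alternatives covered read minimum, level minimum, cluster gap, model, centring, dispersion floor, block, background, depth weighting and left-out samples.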

Additional observations from a re-analysis of the deposited data

Results flagged for a closer look

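In 74 groups of 9 values examined, 6 had an extreme sample set far from the others, where chance flags about 1 in 20. Replicate 2 of the 5-aza-dC bodies harvested at 0 h had a mean level of 3.24% over the background CpGs, with the next highest 5-aza-dC sample at 1.72%. At GL341019 position 2565439, the 2.50% of 1 sample stood out because the other 8 from 5-aza-dC bodies had 0%. At GL341019 position 2550985, replicate 2 of the 5-aza-dC bodies harvested at 48 h had 91.7%, above the 76.2% mean of the sucrose bodies. At chromosome 2 position 12140943, replicate 1 of the sucrose bodies harvested at 24 h had 58.8%, far below the other sucrose bodies. At the chromosome 1 locus from position 12602475, replicate 2 of the sucrose bodies harvested at 0 h had 57.6%, within the range of the 5-aza-dC bodies. At the chromosome 1 locus from position 20613626, replicate 2 of the 5-aza-dC bodies harvested at 24 h had 65.4%.

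The difference between 24 h 5-aza-dC and sucrose bodies changed with harvest time, by the test of the interaction, at 93 CpGs and 9 clusters. The lowest adjusted p-values of the quasi-binomial model were 9.38e-08 at chromosome 3 position 16187704, 6.26e-07 at chromosome 2 position 28074284 and 6.10e-06 at both chromosome 2 positions 28074183 and 28074181. Among clusters they were 0.0107 at chromosome 3 positions 4832935 to 4832970 and 0.0129 at GL341021 positions 1325585 to 1325732. The chromosome 3 cluster was 22.0 points higher at 0 h and 8.39 points lower at 48 h in 5-aza-dC bodies than in sucrose bodies.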

How the results depend on the processing

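Of the 152 CpGs called, limma on arcsine levels called 8 (6 higher in 5-aza-dC bodies and 2 lower) and limma with each sample centred on its median called 6. The quasi-binomial model called 78 without the block for harvest time, 45 without the 5 samples of background above 1%, 64 with at least 10 reads in every sample (24 higher and 40 lower) and 83 at a mean level of at least 20% (30 higher and 53 lower). With the level minimum at 5%, background as a covariate, reads weighted for depth or no dispersion floor, the counts were 137, 136, 110 and 152. Without the 6 samples whose titles give another time or none it was 144, of which 114 were higher and 30 lower, and 67 were among the 152. Leaving out 1 sample at a time gave 79 to 273 CpGs, as set out above, and 7 to 15 clusters. Of the 10 clusters, limma called 5 with or without centring, the model without the 6 samples with other titles called 5, that without the 5 samples of high background called 4, and gaps of at most 50 and 200 bases gave 5 and 8. The dependence on harvest time was called by limma at 4 CpGs and 0 clusters. Without the 5 samples of high background, the class differences at 10 to 20%, 20 to 50% and 50 to 80% turned to -0.451, -0.737 and -0.0819 points. Leaving out 1 sample, the difference at 80% or above ranged from 0.526 to 0.803 points, and it passed without replicate 1 of the 5-aza-dC bodies harvested at 0 h (0.793 points, adjusted exact permutation p = 0.0465) or at 48 h (0.803 points, adjusted exact permutation p = 0.036). No named CpG or cluster changed direction. The calls at GL341018 position 1228871, GL340974 position 146110, GL341019 position 2565439 and the clusters of chromosome 1 and ChrUn_1737 held under every alternative run on them. Leaving out 1 sample also ended the call of the clusters at chromosome 5 position 5839818 (6 of 18 cases, adjusted p up to 0.162), GL341005 (2 cases, up to 0.0897) and GL341019 position 2627184 (1 case, 0.0638), and of the CpG at chromosome 5 position 5839893 (1 case, 0.0512). Other settings ended more of these calls, in 3 of 9 (adjusted p up to 0.460), 5 of 10 (up to 0.358), 6 of 10 (up to 0.989) and 4 of 10 (up to 0.152), in the same order. The cause of these changes was not tested. The choices of background covariate, background limit and depth weighting were made after seeing the data. No paired analysis was possible because the labels give no replicate numbers that pair samples, and those used here only name the samples of a cell. Testing each cytosine on its own was not run, since the table holds 1 position per CpG. At the median depth of 21 reads, 1 read moves a level by 4.76 points, which limits what single CpGs can show.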
